A study of Caenorhabditis elegans with 24 samples.

Results

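Transcripts of 46 nuclear-encoded genes of the mitochondrial respiratory chain were followed in whole Caenorhabditis elegans larvae that had been fed or starved. The genes were chosen by name: every entry of the count table called nuo, sdha, sdhb, sdhd, cyc, isp, ucr, cox, atp, asb or asg with a number, together with gas-1, lpd-5 and mev-1. Of 43800 entries 46 matched, all 46 reached 10 counts in at least 3 of the 24 libraries, and all 46 passed the expression filter that left 15871 genes for testing. They are 8 genes of complex I, 5 of complex II, 7 of complex III, 2 cytochrome c genes, 7 subunits of complex IV, 8 assembly factors of complex IV and 9 genes of the ATP synthase. Chain genes of the mitochondrial genome, and subunits with other names, fall outside this choice.

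The respiratory chain passes electrons from NADH (complex I) and succinate (complex II) through ubiquinone, complex III and cytochrome c to oxygen at complex IV, and the ATP synthase uses the proton gradient this builds to make ATP. Most of its subunits are encoded in the nucleus, translated in the cytosol and imported. In C. elegans, mutants of several of these genes (gas-1, nuo-6, isp-1, mev-1) are widely used because they change life span, metabolic rate or oxidant sensitivity, and several subunits exist as paired genes, one of which can serve mainly the germline.

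All animals were hermaphrodites frozen as whole worms, so each library mixes every tissue, the germline included. The strains were wild-type N2 and mutants carrying efk-1(ok3609), zip-2(tm4248) or cep-1(gk138), called efk1, zip2 and cep1 here. EFK-1 phosphorylates the elongation factor eEF2 of translation, ZIP-2 belongs to the bZIP transcription factors and CEP-1 is the worm homolog of p53. Synchronized larvae grew on OP50, an Escherichia coli food strain, to the middle of the L4 stage. Fed groups were frozen then, and starved groups after washing and 8 h on plates without bacteria, so that food and 8 h of further age cannot be told apart. Each of the 8 groups had 3 libraries, and the labels do not say whether these came from separate cultures, so p-values measure the spread between these libraries, which may be technical.

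Library totals ran from 14622266 to 30266282 counts. The efk-1 transcript was at 7.07 to 13.1 CPM (counts scaled to a common library size, with the TMM factors of edgeR) in the 6 efk1 libraries and at 29.6 CPM or more in all others. The zip-2 transcript was lower in fed zip2 (134 to 198 CPM) than in fed N2 (245 to 330 CPM), and also in starved zip2 (158 to 289.8 CPM against 309.8 to 321 CPM). The cep-1 transcript did not separate fed cep1 from fed N2 libraries (29.98 to 51.8 CPM against 12.6 to 45.2 CPM), so gene-level counts do not show that genotype, and cep1 below means the libraries labelled cep1.

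Levels within the chain were compared in fed N2 per kilobase of the longest annotated transcript. The catalytic subunits of the ATP synthase headed the order, atp-2 (beta) at 1983 ± 362 CPM per kb (SD, n = 3) and atp-1 (alpha) at 1952 ± 402 CPM per kb. The pair differed by far less than either SD. Next came cyc-2.1, the main cytochrome c gene, at 1104 ± 287 CPM per kb, and atp-5 at 967 ± 133 CPM per kb. The ranges that the SDs of these last neighbours span overlap.

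The low end was held by the assembly factors of complex IV, whose products insert heme and copper or help mount the enzyme without being part of it (roles known from yeast and humans). All 8 stood in the last 10 places of the order, from cox-15 (heme A synthesis) at 58.7 CPM per kb down to cox-10 (also heme A synthesis) at 7.84 ± 1.73 CPM per kb. Between them lay sdha-2, the minor gene for the flavoprotein of complex II, at 41.6 ± 0.97 CPM per kb, and ucr-2.1, one of 3 genes for a core protein of complex III, at 9.61 ± 3.57 CPM per kb. The counts of ucr-2.1 had a fractional part in all 24 libraries, as happens where reads are shared between similar entries, and its values are uncertain.

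**Figure D1:**
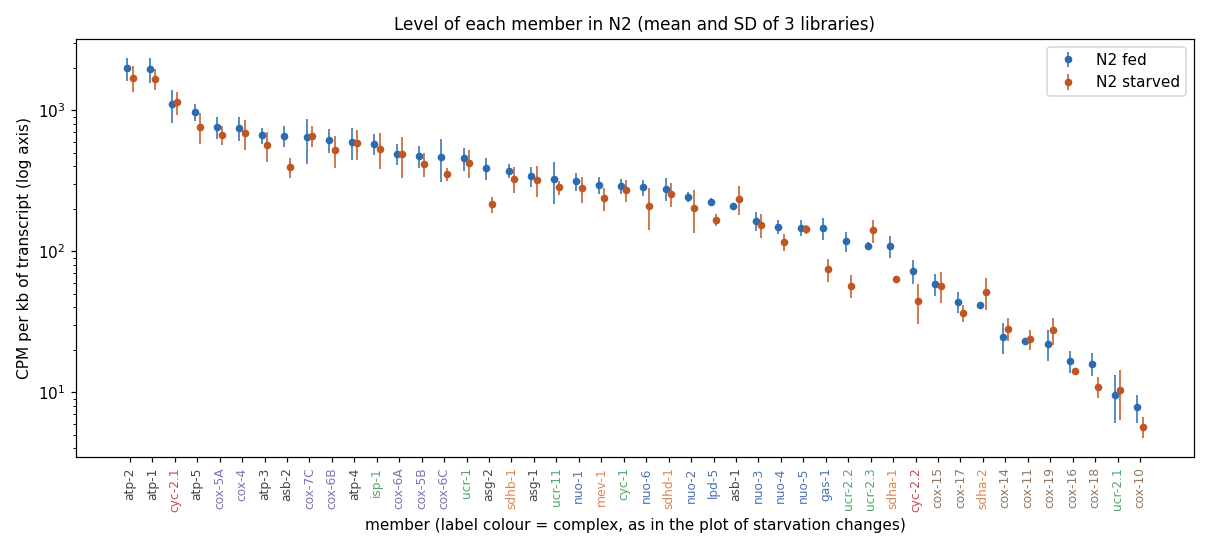
Level of the 46 members in N2, in CPM per kb of transcript on a log axis, as mean and SD of 3 fed (blue) and 3 starved (orange) libraries, ordered by the fed mean. atp-2 and atp-1 lie at 1983 and 1952 CPM per kb and cox-10 at 7.84 CPM per kb, and the 8 complex IV assembly factors lie within the last 10 places.

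The chain as a whole took a slightly smaller share of all counts in starved animals. In N2 the 46 genes held 2.03%, 1.79% and 1.83% of the library total when fed and 1.63%, 1.74% and 1.61% when starved, so the groups did not overlap. In efk1 the shares ran from 1.79% to 1.90% fed and from 1.62% to 1.72% starved, again without overlap. In zip2 (1.71% to 1.90% against 1.60% to 1.83%) and cep1 (1.53% to 1.90% against 1.33% to 1.67%) the groups overlapped. The ATP synthase genes were the largest contributors, with 0.962% to 1.13% of all counts in fed N2 and 0.861% to 0.934% in starved N2.

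After TMM scaling the groups overlapped in all 4 strains, and 1 library in each starved group stood above the other two. The TMM factors of starved N2 replicate 2, efk1 replicate 2, zip2 replicate 2 and cep1 replicate 3 were 0.837, 0.778, 0.651 and 0.848, against 0.960 to 1.31 in the other 8 starved libraries. In these 4 libraries 43 to 45 of the 46 members lay above the mean of their group, by a median of 0.28 to 0.56 on the log2 scale. Summed CPM was 19722 ± 3378 in fed and 16940 ± 3313 in starved N2 (SD, n = 3), and 17260 ± 1966 and 19509 ± 7451 in zip2. What sets these libraries apart was not tested, and results are given below with and without TMM scaling and as ratios within a library, which need no scaling.

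**Figure D2:**
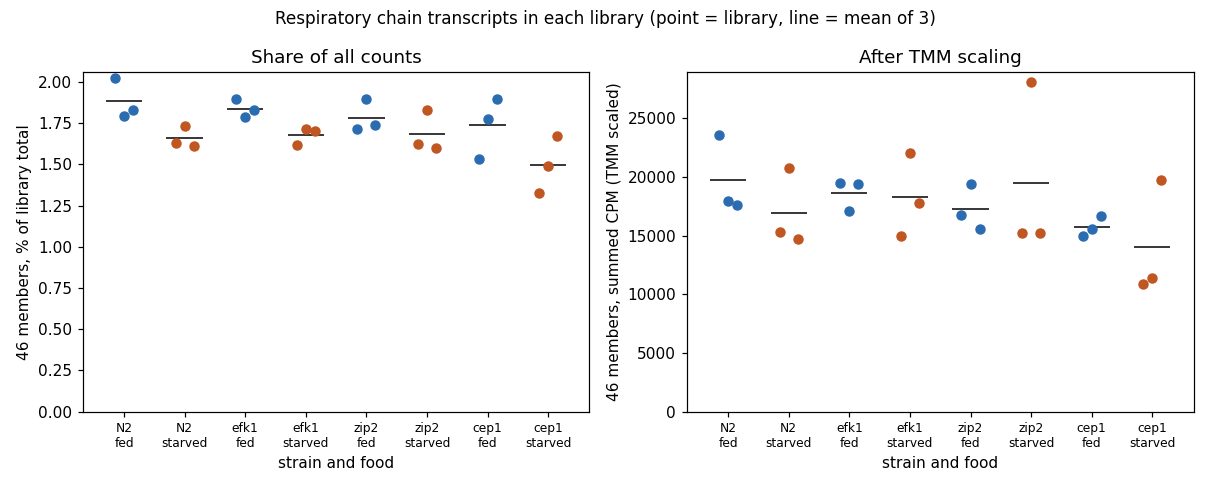
Counts of the 46 members in each library, as % of the library total (left) and as summed CPM after TMM scaling (right), for fed (blue) and starved (orange) libraries, with the mean of 3 as a line. The shares lie between 1.33% and 2.03%. On the right, 1 starved library of each strain stands above its group, most clearly in zip2.

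In N2 a few chain genes were lower in starved than in fed libraries, and most members did not pass the test. Called genes are those with an edgeR adjusted p under 0.05 over all genes tested. In N2, 6 of 46 members fell and 0 rose, which is 13.04% of members against 32.3% of all genes tested (16.4% lower, 15.9% higher). Of the 46, 37 had a negative log2 fold change, with a median of -0.19 against -0.00034 over all genes. In 8 members all 3 starved libraries lay below all 3 fed ones, which held for 24.1% of all genes. The 6 called came from 5 of the 7 groups of members: 1 of 8 in complex I, 1 of 5 in complex II, 1 of 7 in complex III, 1 of 8 assembly factors and 2 of 9 in the ATP synthase, with 0 of 7 complex IV subunits and 0 of 2 cytochrome c genes.

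In complex I the gene that fell was gas-1, a core subunit near the site where electrons pass to ubiquinone. It was at 297, 209.7 and 233 CPM in the fed N2 libraries and at 111, 152 and 115 CPM in the starved ones, and the groups did not overlap. The fit gave a log2 fold change of -0.97 with an SE of 0.27 (edgeR adjusted p 0.0106). All of the other 7 complex I genes had negative values that were not called, from -0.03 for nuo-5 to -0.43 for nuo-6. lpd-5, the counterpart of human NDUFS4, came closest, at 147, 135 and 131 CPM fed and 105, 112 and 92.7 CPM starved (log2 fold change -0.41, SE 0.17, adjusted p 0.0701), also without overlap.

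In complex II, sdha-1, the main gene for the flavoprotein that oxidizes succinate, fell. Its levels were 314, 228 and 244 CPM fed and 146, 159.6 and 151 CPM starved, and the log2 fold change came to -0.78 (SE 0.23, adjusted p 0.0129). Its partner sdha-2 went the other way without being called (log2 fold change 0.30, SE 0.25, adjusted p 0.37). In the rest of the complex, the iron-sulfur subunit sdhb-1 and the membrane anchors mev-1 and sdhd-1 were at -0.19, -0.32 and -0.11 and none was called.

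In complex III the core protein gene ucr-2.2 showed the lowest value of all members. It was at 199, 145 and 167 CPM in fed N2 and at 69.3, 98.8 and 77.7 CPM in starved N2, which is 48.2% of the fed level (log2 fold change -1.05 with an SE of 0.28, adjusted p 0.00813). The third copy, ucr-2.3, was at 152, 155 and 136 CPM fed and 173, 230.4 and 166 CPM starved. Its starved libraries all lay above the fed ones, but the rise was not called (log2 fold change 0.36, SE 0.24, adjusted p 0.254). The catalytic subunits, cytochrome c1 (cyc-1) and the Rieske iron-sulfur protein (isp-1), were at -0.10 and -0.12 and were not called.

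In the ATP synthase the genes that fell were asb-2 and asg-2, genes for subunit b of the peripheral stalk and subunit g of the membrane part. asb-2 was at 933, 695 and 707 CPM fed and 429, 549 and 419.97 CPM starved (log2 fold change -0.74, SE 0.26, adjusted p 0.0357), and asg-2 at 232, 185 and 166 CPM fed and 107, 120.3 and 93.2 CPM starved (log2 fold change -0.87, SE 0.24, adjusted p 0.0097). Neither pair of groups overlapped. Their partners asb-1, the b subunit gene known for its expression in the germline, and asg-1 were not called (0.17 and -0.08). The catalytic core was not called either, at -0.22 for atp-1 and -0.23 for atp-2.

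Complex IV contributed only cox-18, whose product inserts a core subunit into the inner membrane in yeast and humans. It was at 20.6, 14.5 and 16.2 CPM fed and 10.9, 14.1 and 10.3 CPM starved (log2 fold change -0.54, SE 0.20, adjusted p 0.0438). Its closest fed and starved libraries are barely apart. Without fed replicate 1, which had the highest level of all 6 named genes, only ucr-2.2 of the 6 was called in N2.

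**Figure D3:**
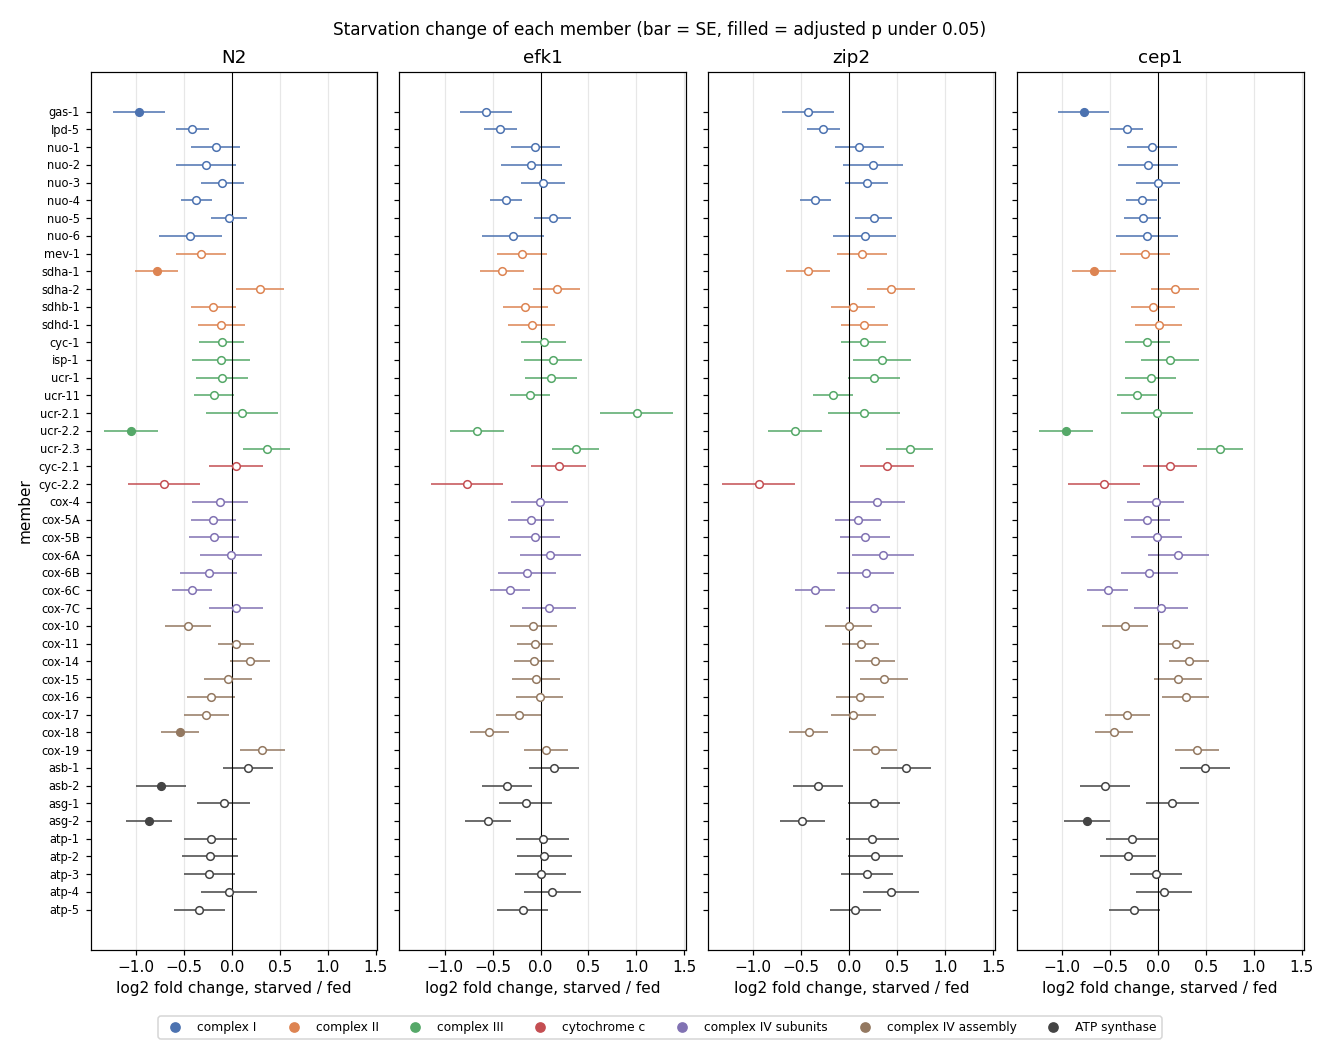
Log2 fold change of each of the 46 members between starved and fed libraries in the 4 strains (edgeR with TMM scaling), with its SE as a bar, coloured by complex, filled where the adjusted p is under 0.05. In all 4 panels gas-1, sdha-1, ucr-2.2, asb-2 and asg-2 lie left of 0, and ucr-2.3 and asb-1 to the right of 0.

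In the mutants ucr-2.2, gas-1 and asg-2 were again among the 6 lowest members, with fewer calls. In cep1, 4 of 46 members fell and 0 rose (8.70%, against 28.4% of all genes, 16.1% lower and 12.3% higher): ucr-2.2 (-0.95, adjusted p 0.0153), asg-2 (-0.74, 0.0247), sdha-1 (-0.67, 0.0325) and gas-1 (-0.78, 0.0364). None of the 4 was called without fed replicate 3, without starved replicate 1 or 2, or when the 6 cep1 libraries were fitted by themselves, and without starved replicate 3, 7 members were called. The share of all genes called in these fits of fewer libraries is not given here. In the main fit the cep1 median over members was -0.08 against 0.01 over all genes.

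In efk1 no member was called by edgeR, while 25.4% of all genes were (11.6% lower, 13.7% higher). In zip2 no member was called either, while 34.4% of all genes were (16.8% lower, 17.6% higher). At an unadjusted p under 0.05, 7 members passed in efk1 and 5 in zip2, and DESeq2 called 2 in each, cox-18 and nuo-4 lower in efk1, and cyc-2.2 lower and ucr-2.3 higher in zip2. Medians over members were -0.06 in efk1 (0.06 over all genes) and 0.16 in zip2 (0.01 over all genes). Fitted by themselves, the 6 efk1 libraries gave 7 calls. In zip2 the sign rested on starved replicate 2: without it the median was -0.18 and 4 members were called lower (asg-2, gas-1, lpd-5 and ucr-2.2). The share of all genes that passed in these alternatives (unadjusted p, DESeq2, fewer libraries) is not given here, so these counts are not set against a general rate. The largest positive value in efk1 was that of ucr-2.1, at 11.2, 9.82 and 7.95 CPM fed and 16.8, 21.5 and 19.9 CPM starved (log2 fold change 1.00, SE 0.38, adjusted p 0.0562), a gene with uncertain counts.

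When libraries were scaled by their totals alone, an alternative added after the values had been seen, the same fit called 7 members lower in N2, 7 in efk1, 9 in zip2 and 10 in cep1, with asb-1 and ucr-2.3 called higher in cep1. The share of all genes called in either direction was 28.3% in N2, 21.4% in efk1, 27% in zip2 and 25.2% in cep1. The share called lower alone is not given here for this scaling. The 7 members asb-2, asg-2, cox-18, gas-1, lpd-5, sdha-1 and ucr-2.2 were called lower in each of the 4 strains. The share of all genes called lower in all 4 strains is not given here, so this count is not set against a general rate. For gas-1 the values were -0.93 in N2, -0.66 in efk1, -0.70 in zip2 and -0.83 in cep1. Under this scaling the median over members was -0.14 in N2 (0.05 over all genes), -0.15 in efk1 (-0.01), -0.10 in zip2 (-0.15) and -0.13 in cep1 (0.04).

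Each member was then set against the geometric mean of the 46 genes in its own library, which removes the scaling. By that measure 5 members were lower in all 3 starved than in all 3 fed libraries of every strain: ucr-2.2, gas-1, asg-2, sdha-1 and asb-2. The count is 5 of 46, where 5.88% of all genes tested showed the same against the chain mean. asb-1 and ucr-2.3 were higher in the same complete way, 2 of 46 against 12.4% of all genes. For ucr-2.2 the starved minus fed difference of the mean log2 values was -0.83 in N2, -0.58 in efk1, -0.66 in zip2 and -0.83 in cep1.

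**Figure D4:**
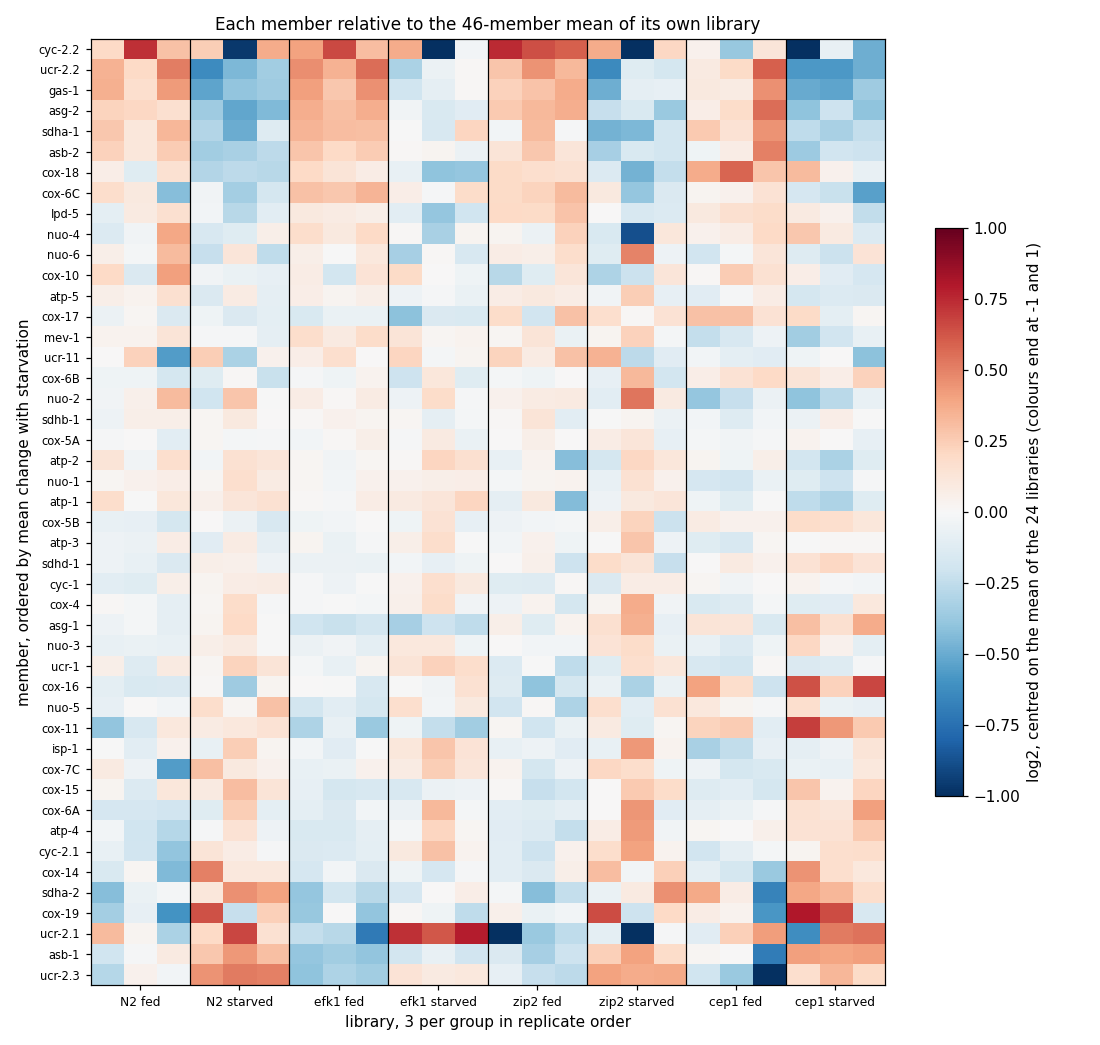
Log2 count of each member relative to the geometric mean of the 46 members in the same library, centred per gene, for the 24 libraries in group and replicate order; members are ordered by their mean change with starvation. The rows of ucr-2.2, gas-1, asg-2, sdha-1 and asb-2 are mostly red in fed and mostly blue in starved libraries, and asb-1 and ucr-2.3 at the bottom mostly show the opposite.

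These 5 genes share a chromosome. Of the 46 members 6 lie on the X chromosome in the Ensembl release 115 annotation of WBcel235: asb-2 (chromosome X, 4469766 to 4471476), asg-2 (6841258 to 6842121), sdha-1 (8542757 to 8546021), ucr-2.1 (12018429 to 12021206), ucr-2.2 (15173904 to 15178145) and gas-1 (15586786 to 15590397). All but ucr-2.1 are in the set of 5, and 0 of the 40 autosomal members are. The divide is less sharp in the values. Autosomal cox-18, cox-6C and lpd-5 were completely lower in 3 strains each. The mean difference over the strains was -0.38 for cox-18, close to the -0.40 of asb-2. Autosomal cyc-2.2 had the lowest mean of all members (-0.73) but was completely lower in only 1 strain. Of all genes tested, 9.0% of the X-linked and 5.43% of the autosomal ones were lower against the chain mean in the same complete way. As background, genes on the worm X chromosome are largely silent in the germline, and some essential X-linked genes have an autosomal copy that is active there.

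Starvation medians differed between the chromosomes for members and for genes in general. In N2 the median log2 fold change was -0.82 over the 6 X-linked and -0.18 over the 40 autosomal members, and -0.33 over the 2067 X-linked and 0.05 over the 13060 autosomal genes tested. In efk1 it was -0.47 against -0.06 for members and -0.15 against 0.10 for all genes. In zip2 the values were -0.43 against 0.18 for members and -0.37 against 0.06 for all genes, and in cep1 -0.70 against -0.05 and -0.16 against 0.03. Of all X-linked genes 26.3% were called lower in N2, against 14.8% of autosomal genes, while 5 of 6 X-linked members were. In cep1 the shares were 20.8% and 15.3%, with 4 of 6 X-linked members called. In efk1 (18.3% and 10.5%) and zip2 (27.4% and 15%) 0 of the 6 were. The chromosome was looked up after the 5 genes had stood out, so these are descriptions with no test, and 744 tested entries could not be matched to a chromosome by name.

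Each of the 5 has an autosomal paralog among the genes measured. The partners are asb-1 (chromosome III, 4594543 to 4595821), asg-1 (chromosome I, 8692946 to 8693468), sdha-2 (chromosome I, 10683270 to 10685587), ucr-2.3 (chromosome III, 879860 to 881458) and, for gas-1, the gene nduf-2.2 (chromosome III, 6465222 to 6467206), which the name rule does not take. The ratio of the counts of a pair within a library is free of scaling, and is set side by side between groups, not between genes. The 5 genes had stood out by their values in these same libraries, so the ratios are descriptions with no test.

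In all 5 pairs the ratio of the X-linked gene to its partner was lower in starved libraries. For asb-2 to asb-1 the ratio was 4.11, 3.32 and 3.40 in fed N2 and 1.99, 1.80 and 2.05 in starved N2. In efk1 it ran from 4.45 to 4.81 fed and from 3.26 to 3.48 starved, in zip2 from 3.68 to 4.62 and from 2.05 to 2.36, and in cep1 from 2.93 to 6.995 and from 1.78 to 2.03. The groups were apart in every strain, and the ratio in starved animals was 0.562 times that in fed animals over the 4 strains (log2 difference -0.83).

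The ratio of asg-2 to asg-1 was 1.22, 1.18 and 1.21 in fed N2 and 0.777, 0.615 and 0.748 in starved N2. Starved libraries ran from 0.713 to 0.831 in zip2 and from 0.592 to 0.784 in cep1, below all fed ones of the same strain (1.16 to 1.37 and 0.971 to 1.65). In efk1 both ranges were higher, 1.45 to 1.497 fed and 1.054 to 1.24 starved. The log2 difference over the strains was -0.68 (0.626 times).

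The ucr-2.2 to ucr-2.3 ratio differed most of the 6 pairs. It was 1.31, 0.937 and 1.23 in fed and 0.40, 0.429 and 0.467 in starved N2, and in efk1 it ran from 1.32 to 1.58 fed and from 0.614 to 0.789 starved. In zip2 it ran from 1.08 to 1.35 fed and from 0.411 to 0.597 starved, and in cep1 from 1.02 to 2.89 and from 0.449 to 0.526. The starved ratio was 0.396 times the fed one (log2 difference -1.33).

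For gas-1 to nduf-2.2 the ratio was 2.74, 1.90 and 2.14 in fed and 0.929, 0.862 and 0.986 in starved N2, and 0.467 times as high in starved as in fed animals over the strains (log2 difference -1.097). For sdha-1 to sdha-2 it was 3.73, 2.62 and 2.94 fed and 1.74, 1.19 and 1.60 starved in N2, and 0.558 times as high over the strains (log2 difference -0.84). In both pairs the fed and starved groups were apart in all 4 strains.

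The sixth pair has no X-linked member. cyc-2.1 (chromosome IV) and cyc-2.2 (chromosome V) both encode cytochrome c. The ratio of cyc-2.1 to cyc-2.2 was 24.03, 15.4 and 18.1 in fed and 26.97, 59.995 and 22.3 in starved N2, and it was 1.997 times as high in starved animals over the 4 strains. The groups overlapped in N2 and cep1, and the highest ratios, 59.995, 78.9, 155.8 and 70.4, were each in 1 starved library of a strain. In those of N2, efk1 and zip2 the TMM factor was also the lowest of the group.

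**Figure D5:**
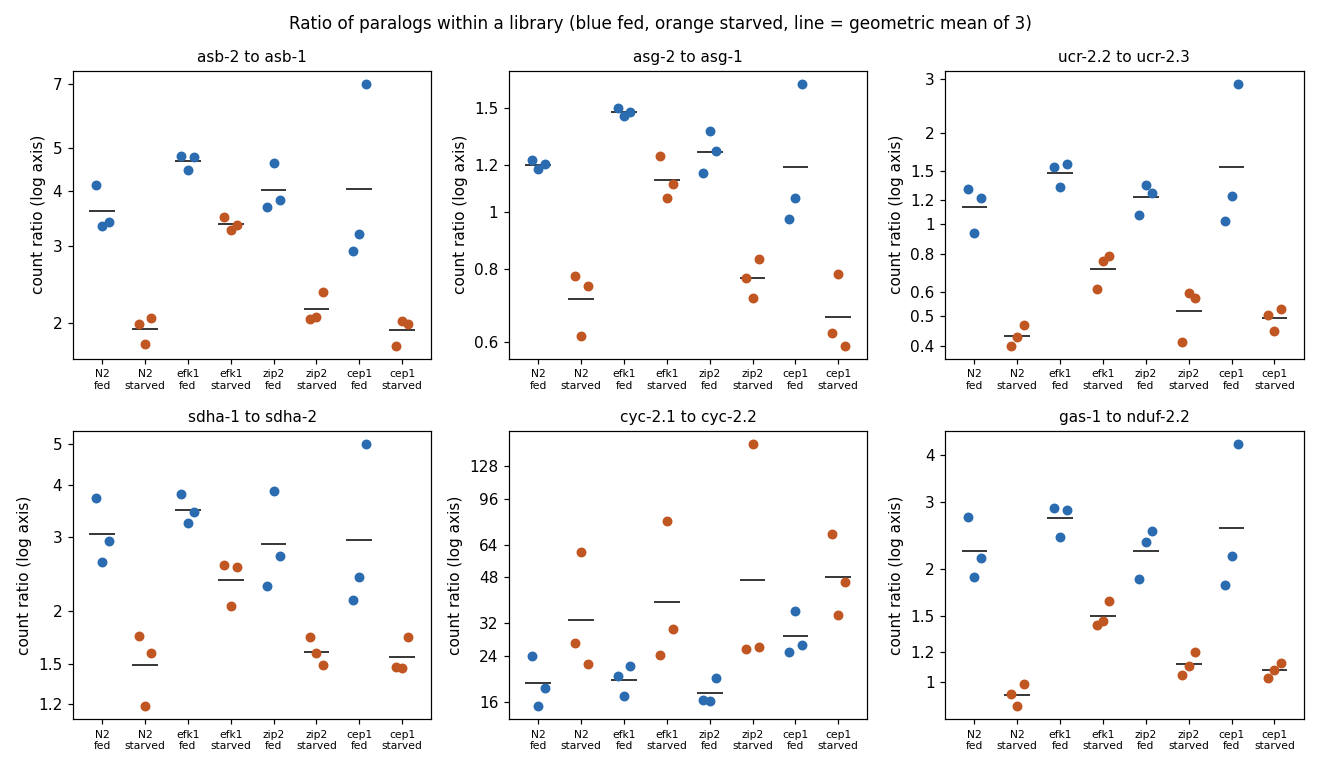
Count ratio of 6 pairs of paralogs within each library, on log axes, for fed (blue) and starved (orange) libraries of the 4 strains, with the geometric mean of 3 as a line. In the 5 pairs with an X-linked gene named first, every starved library lies below every fed library of its strain; for cyc-2.1 to cyc-2.2 the groups overlap in N2 and cep1. In those 5 pairs fed cep1 replicate 3 has the highest ratio of the 24 libraries.

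The efk1 strain had higher ratios of X-linked to autosomal copies. These too are descriptions with no test. Over fed and starved animals the efk1 ratio was 1.499 times that of N2 for asb-2 to asb-1, 1.401 times for asg-2 to asg-1 and 1.46 times for ucr-2.2 to ucr-2.3, and in these 3 pairs every efk1 library lay above every N2 library of the same food. For gas-1 to nduf-2.2 it was 1.41 times and for sdha-1 to sdha-2 1.35 times, with the fed groups overlapping in both. In both of these pairs every starved efk1 library lay above every starved N2 library. In zip2 and cep1 the same 5 ratios were 0.961 to 1.24 times those of N2, and the fed groups overlapped in each. The starved groups overlapped as well, except for gas-1 to nduf-2.2. In that pair every starved zip2 and starved cep1 library lay above every starved N2 library, so its starved shift was not particular to efk1.

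No single member was called different between a mutant and N2 in the edgeR fit of all libraries. The count was 0 in fed efk1, zip2 or cep1, where 1.51%, 1.13% and 4.89% of all genes were, and 0 in the starved strains, where 1.93%, 1.3% and 7.71% were. At an unadjusted p under 0.05 only ucr-2.3 in fed cep1 passed, and DESeq2 called 0 members in all 6 comparisons. Differences between the starvation response of a mutant and that of N2 were called for 0 members, by edgeR (0.246%, 0% and 0% of all genes called for efk1, zip2 and cep1), by DESeq2 or at an unadjusted p under 0.05.

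Same-numbered starved efk1 and N2 libraries deviated together, a pairing read from these data that the labels do not state. A fit of these 6 libraries that paired them by replicate number called 4 members. asg-2 (log2 fold change 0.37, adjusted p 0.0383), gas-1 (0.36, 0.0469) and ucr-2.2 (0.39, 0.0279) were higher in efk1, and asb-1 (-0.45, 0.021) was lower. In that fit 29.1% of all genes were called, against 1.93% in the fit of all libraries. The share of members called is below that of genes in general. The genes called are 3 of the X-linked members and the autosomal partner of another.

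In fed cep1 the chain stood low as a group without single calls. Of 46 members 42 had negative values against fed N2, with a median of -0.27 against 0.03 over all genes, and for 18 members all 3 cep1 libraries lay below all 3 N2 libraries, which held for 14.7% of all genes. Scaled by library totals alone, the median was -0.05 against 0.22 over all genes. ucr-2.3 was the member with the lowest p, at 110, 103 and 58.4 CPM in fed cep1 and 152, 155 and 136 CPM in fed N2, and its difference of -0.70 on the log2 scale (SE 0.24) had an adjusted p of 0.0865. In starved zip2 42 of 46 members had positive values against N2 (median 0.18), but without zip2 replicate 2 the count was 7 and the median -0.12.

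The members moved together from library to library. Over the 24 libraries the median Pearson correlation of log2 CPM was 0.611 over the 1035 pairs of members, and it was 0.804 for deviations from the group means; the libraries share one TMM factor for all genes, so this is a description. The closest pair was gas-1 and ucr-2.2 (r = 0.993), and the closest partner of asb-2 was gas-1 (r = 0.973). asb-1 and ucr-2.3 were each other's closest partners (r = 0.884). cyc-2.2 and cox-19 stood apart, with a median r of -0.0059 and 0.0025 with the other members.

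Among further genes of the pathway, lists were read from the same fit. A list of 13 genes held further chain subunits and assembly factors, and also mai-1 and mai-2. Of these 13, nuaf-1 (an assembly factor of complex I) rose in N2, efk1 and cep1. In N2 it went from 16.6 ± 4.398 to 31.6 ± 2.41 CPM (SD, n = 3), with an edgeR adjusted p of 0.00371 for a log2 fold change of 0.93. bcs-1 rose in efk1 and zip2, mai-1 rose in efk1 and sco-1 fell in cep1. The list's median in N2 was -0.10, and 1 of the 13 was called there, against 32.3% of all genes tested.

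Of 8 genes for ubiquinone synthesis, coq-5, a methyltransferase of the pathway, fell in all 4 strains, in N2 from 49.1 ± 7.502 to 34.5 ± 2.36 CPM (adjusted p 0.0112 for a log2 fold change of -0.51). coq-1 fell in N2, zip2 and cep1, coq-8 fell in zip2 and cep1, and coq-2 rose in zip2 and cep1. The list was mixed: in each strain 4 of the 8 had positive and 4 had negative values, with medians from -0.07 in N2 to 0.04 in cep1. Of 15 genes of the TCA cycle, which feeds NADH and succinate to the chain, 4 fell in N2, 2 in efk1, 0 in zip2 and 3 in cep1, and none was called higher. The share of all genes called lower was 16.4%, 11.6%, 16.8% and 16.1% in these strains. suca-1, a subunit of succinyl-CoA synthetase, fell in N2 from 207 ± 29.9 to 104 ± 8.90 CPM (adjusted p 6.13e-04 for a log2 fold change of -0.99), and also in efk1 and cep1. mdh-2, mitochondrial malate dehydrogenase, fell in the same 3 strains.

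Of the 4 ADP/ATP carriers, ant-1.4 fell in all 4 strains and ant-1.3 in N2 and efk1. In every strain 2 of the 4 carriers had positive values. Depending on the strain, 11.6% to 16.8% of all genes were called lower. The share of all genes called in all 4 strains at once is not given here for any list. Of 14 import genes tomm-70, an outer-membrane receptor for carrier proteins, fell in all 4 strains (log2 fold changes from -0.43 in N2 to -0.64 in cep1), and timm-17B.2 rose in cep1. That list's median was -0.15 in N2, -0.10 in efk1, 0.02 in zip2 and -0.15 in cep1. In fed cep1 timm-17B.2 was called lower than in fed N2, so its rise started from a lower level. The import gene tin-10 and the carriers ant-1.3 and ant-1.4 were also called lower in fed cep1, where 4.89% of all genes were called in either direction. Of 10 genes of the mitochondrial stress response none was called higher, where 15.9% of all genes were in N2, 13.7% in efk1, 17.6% in zip2 and 12.3% in cep1. The chaperonin hsp-60 fell in all 4, in N2 from 516 ± 95.5 to 223 ± 17.8 CPM (adjusted p 1.13e-04 for a log2 fold change of -1.21). The last list, of 6 genes, was drawn up for maintenance and transcription of mitochondrial DNA and also held skn-1. Here polg-1, the polymerase of that DNA, rose in all 4 strains (log2 fold changes from 0.62 in cep1 to 1.04 in zip2). twnk-1, its helicase, fell in N2, zip2 and cep1.

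Sums of tissue markers differed between fed and starved libraries, and in bulk samples fewer cells of a type and less RNA per cell cannot be told apart. The 10 germline markers summed to 0.187% to 0.211% of all counts in fed and 0.247% to 0.254% in starved N2. Both ranges were lower in efk1, at 0.159% to 0.175% and 0.179% to 0.198%. Fed and starved libraries overlapped in zip2 (0.175% to 0.214% and 0.204% to 0.232%) and in cep1 (0.134% to 0.244% and 0.2201% to 0.231%), and the lowest sum of the 24 libraries, 0.134%, was in fed cep1 replicate 3, the library with the highest ratios of X-linked to autosomal copies. The 7 oocyte markers summed to 0.176% to 0.194% in fed and 0.351% to 0.456% in starved N2, and overlapped in cep1 (0.148% to 0.458% and 0.330% to 0.544%). They did not overlap in efk1 (0.104% to 0.128% fed and 0.166% to 0.320% starved) or zip2 (0.110% to 0.214% and 0.291% to 0.374%). Of the 7, 3 were called higher in N2, 6 in efk1, 7 in zip2 and 0 in cep1, against 15.9%, 13.7%, 17.6% and 12.3% of all genes. The intestinal markers (6 of 7; opt-2 was not analysed here) summed to 0.273% to 0.280% in fed and 0.046% to 0.0973% in starved N2. Of these 6, act-5 and pept-1 were called lower in N2 and 1 had a positive value, with a median log2 fold change of -0.40, and in efk1 3 of 6 were positive and ifb-2 was called higher. The 7 body muscle markers were at 1.13% to 1.29% in fed and 0.937% to 1.13% in starved N2. In efk1 they were at 1.201% to 1.25% fed and 1.28% to 1.37% starved. After TMM scaling 4 of these 7 had negative log2 fold changes in efk1, with a median of -0.0067, and none was called there. In N2 the 7 sperm markers overlapped, at 0.0586% to 0.0784% fed and 0.0558% to 0.0748% starved. In cep1 all 7 had negative log2 fold changes (median -0.74), and spe-9, spe-15 and fer-1 were called lower. spe-9 was also called lower in N2 and efk1, and fer-1 in efk1 and zip2. No sperm marker was called higher with starvation. The 6 hypodermis markers summed to 0.185% to 0.238% in fed and 0.278% to 0.323% in starved N2. Yet 4 of these 6 were called lower there, against 16.4% of all genes, so the sum does not stand for its members. The part of these shifts in the results on the X-linked members was not tested.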

How the data were processed

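The authors deposited 1 table of estimated counts per gene for the 24 libraries. A fraction is present in 10.6% of the nonzero values. The submitters' processing notes name Trimmomatic 0.36, Salmon 0.9.1, edgeR and the build WBcel235; the roles of these, the annotation and the use of strand are not given in the sources used here. Per the labels' protocols, libraries were strand-specific and made from mRNA.

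After rounding of the estimated counts, edgeR 4.0.16 (R 4.3.3) was run with filterByExpr on the 8 groups (minimum count 10, minimum total 15), TMM factors, 1 mean per group, robust quasi-likelihood fits with 16 residual degrees of freedom, 13 contrasts, and Benjamini-Hochberg adjustment over 15871 genes. The common coefficient of biological variation came to 29.0%. The edgeR steps were run on simulated counts with the same spread for every gene and no library of deviant composition. That run does not bear on the libraries with low TMM factors. Alternatives were DESeq2 1.42.0, other scalings, no filter, fits of only the groups compared, a replicate block and leaving out each library. Groups and replicate numbers came from the sample titles. Same-numbered libraries deviated together, with every correlation over 0.1, between starved efk1 and N2 (0.456 to 0.819) and between starved zip2 and N2 (0.624 to 0.757), and in no other comparison. Ratios of paralogs used the counts as deposited. The members, gene lists and pairs of paralogs were chosen with earlier results of these data known. Members were named where called, where they form paralog sets, or where highest or lowest in a comparison or complex.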

Additional observations from a re-analysis of the deposited data

How the results depend on the processing

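Counts of members called after starvation depended on scaling and on single libraries. The counts below stand without the share of all genes called in the same fit, so they compare settings only. In N2, 6 were called, and leaving out 1 library gave 1 to 6. In efk1, 0 were called, against 2 with DESeq2, 7 with library totals alone, 7 when the 6 efk1 libraries were fitted by themselves and 2 when that fit had a replicate block. In zip2, 0 were called, against 2 with DESeq2, 1 with RLE scaling, 9 with library totals and 0 to 4 on leaving out 1 library. In cep1, 4 were called, against 2 with RLE scaling, 12 with library totals, 0 when its 6 libraries were fitted by themselves, 0 with the replicate block and 0 to 7 on leaving out 1 library. Between starved efk1 and N2 the replicate block took the count from 0 to 4, and between starved cep1 and N2 leaving out cep1 replicate 3 gave 1. The cause of these shifts was not tested. The block left the counts of the other comparisons between a mutant and N2 at 0. The other 153 counts of members called under an alternative stayed within 1.5 times. Among single members, 725 values stayed on the same side of the threshold, 52 passed it and 39 lost it. On leaving out 1 library, the log2 difference of the ratios stayed between -0.89 and -0.73 for asb-2 to asb-1, -0.71 and -0.62 for asg-2 to asg-1, -1.41 and -1.22 for ucr-2.2 to ucr-2.3, -0.90 and -0.75 for sdha-1 to sdha-2, -1.16 and -1.004 for gas-1 to nduf-2.2, and 0.78 and 1.11 for cyc-2.1 to cyc-2.2.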
